A study of Camellia sinensis with 6 samples.

Results

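Nitrate uptake and reduction were followed through 3 gene models of the tea plant. They are named in the deposited annotation as high affinity nitrate transporter 2.4 (evm.TU.Cha11g004520), nitrate reductase [NADH] (evm.TU.Cha04g009830) and ferredoxin-nitrite reductase (evm.TU.Cha02g016130). The prefix evm.TU. is left off other identifiers. The deposited tables list 40118 models, of which 33556 are from the gene caller and 6562 are loci outside it, and both kinds are called models here. The 3 were chosen out of them by their lower counts in cold-grown than in warm-grown shoots in these same libraries. Their difference between the temperatures is therefore a description, given with no test. RNA was sequenced from young shoots of 'Zhonghuang 2', a cultivar that makes yellow leaves when grown cool. All plants first had 1 month at 22 °C in 2 chambers, with 12 h each of dark and of fluorescent light at 200 µmol per square metre and second. The control chamber was then set to high temperature (26 °C light, 22 °C dark) and the other to low temperature (18 °C light, 14 °C dark). When the cold-grown leaves had yellowed, 3 libraries were made from green warm-grown shoots and 3 from the yellow ones. Since the chambers differed with the temperatures, the effects of chamber and temperature cannot be told apart. Separate plants are not recorded for the libraries within a group, and the p-values describe no more than the differences among these libraries, which may be technical.

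Plants take up nitrate at low outside concentrations through transporters of the NRT2 family, most of which work with a small partner protein of the NRT3 family. Nitrate reductase, a cytosolic enzyme that carries FAD, heme and a molybdenum cofactor, turns nitrate into nitrite. Nitrite reductase, a chloroplast enzyme with a siroheme and an iron-sulfur cluster, turns nitrite into ammonium with electrons from ferredoxin, and the ammonium is then built into glutamine and glutamate. In Arabidopsis, nitrate itself raises the RNA of both reductases, whereas the RNA of NRT2.4 rises when nitrogen is short. The names used here are those of the most similar described proteins in the deposited annotation, and the same regulation in tea is not assumed.

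All 3 gene models had far fewer counts at low temperature, and the transporter fell to the limit of what these libraries could detect. Levels are in CPM, counts scaled by TMM to one library size. In high-temperature replicates 1, 2 and 3 the transporter had 529, 312 and 315 counts, and in the low-temperature replicates 3, 0 and 3. Its levels were 35.9, 18.7 and 20.7 CPM at high temperature. At low temperature they were 0.20, 0 and 0.194 CPM, where a count of 3, taken as the floor, is 0.191 CPM in the library with no count. High-temperature replicate 1 stood above the other 2 libraries of its group, and no low-temperature library rose above the floor. Summed over the libraries, 1156 counts stood against 6, a ratio of 190 (exact 95% interval 87.2 to 520, for counting error only).

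Nitrate reductase had 2196, 1940 and 2083 counts in the warm and 331, 377 and 405 in the cold. Its levels were 149, 116 and 137 CPM against 22.0, 24.1 and 26.2 CPM. The libraries of each group lay close together, and the means of 134 ± 16.6 and 24.1 ± 2.08 CPM (SD, n = 3) differed 5.56-fold. Nitrite reductase had 1200, 1214 and 810 counts against 216, 353 and 187. Its levels were 81.4, 72.7 and 53.1 CPM at high temperature and 14.4, 22.5 and 12.1 CPM at low temperature. This gene varied more among libraries than nitrate reductase, with high-temperature replicate 3 the lowest of its group and low-temperature replicate 2 the highest of its own. Its means were 69.1 ± 14.5 and 16.3 ± 5.48 CPM (SD, n = 3), a 4.23-fold difference. For each of the 3 genes every low-temperature library lay below every high-temperature library, which was also so for 18.4% of all tested models (36.5% with no overlap in either direction). Of 26767 models tested, 1 had a lower log2 change than the transporter, 108 than nitrate reductase and 184 than nitrite reductase. These ranks follow in part from the choice of the 3 by their fall, and the transporter's fitted change depends on the prior count. In bulk shoots, fewer cells of a type and less RNA per cell cannot be told apart.

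**Figure D1:**
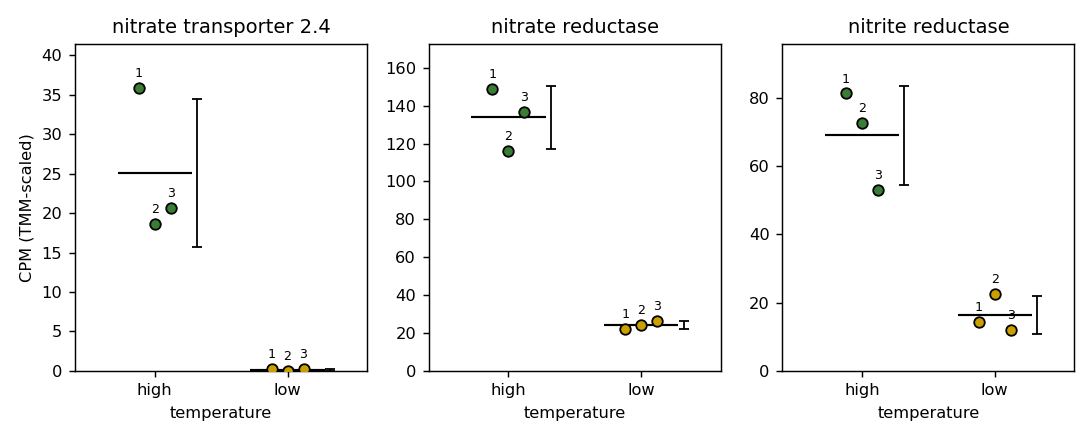
TMM-scaled CPM of the transporter, nitrate reductase and nitrite reductase in each library, numbered by replicate, at high (green) and low (yellow) temperature; horizontal lines are means and bars are SD (n = 3). Every low-temperature point lies below every high-temperature point, and the transporter is at or below 0.20 CPM in the cold.

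Per coding length, nitrate reductase stood at 0.61 to 1.47 times nitrite reductase within a library, which rests on the annotated lengths of both models. At high temperature the FPKM (level per length of gene, as the authors deposited it) of nitrate reductase was 55.6, 42.7 and 50.9, and that of nitrite reductase was 53.2, 46.7 and 34.7. The FPKM ratio of nitrate to nitrite reductase was 1.05, 0.913 and 1.47 in the high-temperature libraries. In the low-temperature libraries it was 0.875, 0.61 and 1.24. The ranges of that ratio overlap, and neither temperature set the reductases in a fixed order. The transporter's FPKM was 40.0, 20.5 and 23 at high temperature, from 0.452 to 0.719 of that of nitrate reductase, and its highest low-temperature value was 0.222. In the order of all 40118 models by FPKM, between 3192 and 3784 models stood above nitrate reductase in a high-temperature library. In a low-temperature library between 12793 and 14095 did.

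The transporter model lies on assembly sequence 11, from 48980112 to 48981730, on the minus strand. Its coding length is 888 bases, 53.2% of the 1668 bases of the other model with the same protein name (ChaUn9581.1). The annotation gives it no protein domain, while 5 of the 9 NRT2-named models carry the Major Facilitator Superfamily domain of such transporters. It may thus be a partial model, and its FPKM rests on that length. Nitrate reductase lies on sequence 4, from 77704968 to 77726811, on the minus strand, with 2652 coding bases spread over 21844 bases of genome. It carries the molybdopterin-binding, cytochrome b5-like heme, FAD-binding and NAD-binding domains that define the enzyme. Nitrite reductase lies on sequence 2, from 153818620 to 153822992, on the plus strand, with 1515 coding bases. It carries the 4Fe-4S and ferredoxin-like domains shared by nitrite and sulfite reductases. The build is not given in the sources used here, and no sequence is printed.

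Of the other gene models with NRT2 and NRT3 names, none passed the test, and most had too few counts to test. In the deposited tables no other model carries the name of either reductase, so reads of these enzymes were not split by name. The second model named nitrate transporter 2.4 was at 0 counts in all 6 libraries. In all, 8 other models carry an NRT2 name, and 4 of them had no count in any library. The only one with enough counts to test, named NRT2.5 (Cha06g016450), stood at 2.25 ± 0.436 CPM at high and 1.68 ± 0.689 CPM at low temperature (SD, n = 3). Its log2 change was -0.42 ± 0.42 (SE) and did not pass the test (edgeR quasi-likelihood test, adjusted p = 0.533). A model named NRT2.1 (Cha02g004940) had 6, 8 and 2 counts against 0, 0 and 1, too few to test. The listed transporter held 89.5% of the NRT2-named counts at high temperature and 5.5% at low temperature.

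The partner proteins of the NRT3 family are named in 3 models, of which 2 could be tested. NRT3.1 (Cha06g004090), the more abundant, had levels of 8.82, 7.60 and 9.45 CPM at high and 10.1, 6.51 and 6.66 CPM at low temperature. Its groups overlap, and its log2 change of -0.16 ± 0.23 (SE) did not pass the test (edgeR, adjusted p = 0.684). NRT3.2 (Cha06g016130) had 16, 11 and 13 counts against 3, 7 and 2. Those groups do not overlap, but with so few counts the log2 change of -1.70 ± 0.71 (SE) did not pass after adjustment over all models (edgeR, adjusted p = 0.105). Of these 3 tested NRT2 and NRT3 models none was called by edgeR or by DESeq2, and 1 had an unadjusted p under 0.05.

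**Figure D2:**
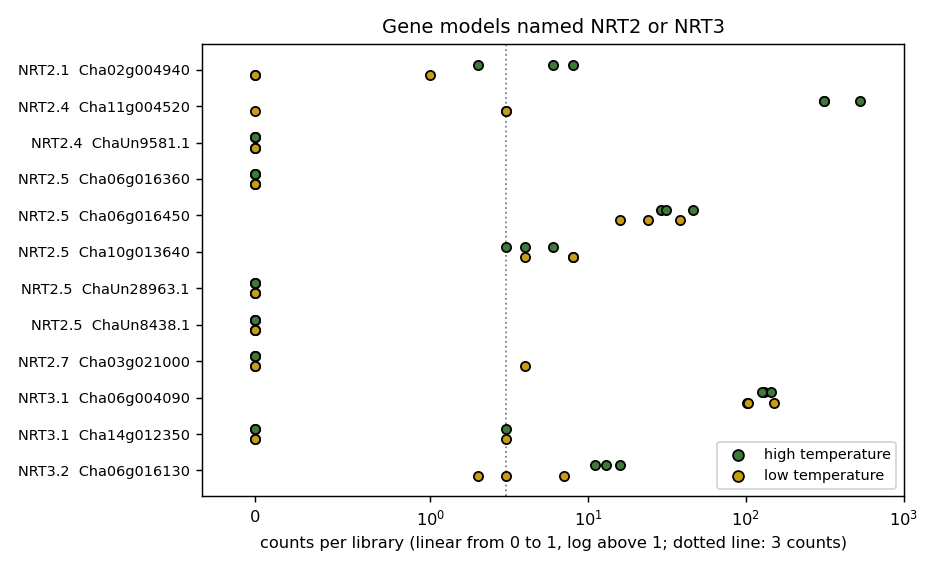
Counts per library of the 12 gene models named NRT2 or NRT3, at high (green) and low (yellow) temperature, on an axis that is linear from 0 to 1 and logarithmic above. The listed NRT2.4 model has 312 to 529 counts in the warm and at most 3 in the cold, while NRT3.1 has overlapping groups.

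The rest of the nitrate pathway showed no common direction. Lists of transporters, cofactor enzymes, electron donors, assimilation enzymes and regulators were matched on protein names, with the 3 members left out. Of 293 models 207 were tested, and 24 rose and 23 fell at an adjusted p under 0.05 (edgeR). These shares, 11.6% and 11.1%, are near those of all tested models, of which 9.27% rose and 9.65% fell (18.9% in either direction). The 24 and the 23 each include 1 folylpolyglutamate synthase, caught by spelling and not of this pathway. The median log2 change was -0.05 over these lists and -0.01 over all models. By list, the share called in either direction was 50% for asparagine synthetases and glutamate dehydrogenases, 44.4% for electron supply and 42.1% for 14-3-3 proteins. It was 33.3% for anion channels, 27.8% for the molybdenum cofactor and 25% for glutamine and glutamate synthesis. Regulators had 16.7%, the NRT1/PTR family 14%, and the NRT2, NRT3, siroheme and ammonium and urea lists 0%. Without low-temperature replicate 2 the counts were 12 that rose and 7 that fell, and without low-temperature replicate 3 they were 15 and 10. Without high-temperature replicate 3, 13 fell, and without low-temperature replicate 1, 14 fell.

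In the NRT1/PTR family (NPF), which moves nitrate, peptides and other solutes, 5 of 57 tested models rose, 3 fell and 49 did not pass. Without low-temperature replicate 2 or 3 alike, 2 rose and 1 fell, and without high-temperature replicate 2, 5 rose and 5 fell. Without low-temperature replicate 1, 3 rose. The most abundant per length, named NPF3.1 (ChaUn37371.2), had 29.1 ± 1.44 and 24.3 ± 1.75 CPM at high and low temperature (edgeR, adjusted p = 0.222). Another model of that name (Cha06g019640) rose from 6.02 ± 1.15 to 13.6 ± 4.54 CPM, and an NPF1.2 (Cha05g016210) fell from 13.9 ± 2.80 to 7.40 ± 0.889 CPM. The model named NPF6.3, after the nitrate transporter and sensor of Arabidopsis (Cha14g006770, named here after its values were seen), had 20.3 ± 3.52 and 18.8 ± 0.904 CPM (adjusted p = 0.684). None of 12 tested ammonium and urea transporters was called by edgeR or DESeq2, and none had an unadjusted p under 0.05, but 1 fell without high-temperature replicate 2. Of 9 tested anion channels 1 rose and 2 fell, none fell without low-temperature replicate 2 or 3, and 1 fell without high-temperature replicate 2 or 3 or low-temperature replicate 1. CLC-e (Cha02g019240), a thylakoid member of the chloride channel family, rose from 10 ± 1.24 to 20 ± 3.22 CPM (log2 change 1.00 ± 0.18 SE, edgeR adjusted p = 0.00113). SLAH3 (Cha01g009150), a nitrate-permeable channel in Arabidopsis, fell from 31.1 ± 4.39 to 22.0 ± 1.30 CPM (adjusted p = 0.0276). That call was lost without high-temperature replicate 2 and without any 1 of the low-temperature libraries, with an adjusted p of up to 0.106. A locus outside the gene models that also has the SLAH3 name fell from 1.27 ± 0.282 to 0.155 ± 0.214 CPM, and its call was lost without high-temperature replicate 3 or low-temperature replicate 2 or 3. Its low-temperature mean lies below the floor of 3 counts (0.191 to 0.20 CPM in those libraries), so the size of its fall is uncertain.

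Genes for the reductases' cofactors went both ways. Nitrate reductase needs the molybdenum cofactor, for whose synthesis and molybdate supply 3 of 18 tested models rose and 2 fell. Without low-temperature replicate 2 or 3 only 1 rose, and without high-temperature replicate 3 or low-temperature replicate 1 each, 2 rose. The catalytic subunit of molybdopterin synthase (Cha11g013260) fell from 15.8 ± 2.44 to 8.56 ± 0.616 CPM, and its sulfur carrier subunit (Cha09g009190, named after its values were seen) from 26.2 ± 3.11 to 16.2 ± 3.45 CPM. The sulfur carrier's call was lost without high-temperature replicate 3 or low-temperature replicate 1 or 2 (adjusted p of up to 0.0741). CNX1 (ChaUn10789.2), which inserts molybdenum to finish the cofactor, rose from 4.44 ± 1.04 to 9.62 ± 1.99 CPM. The most abundant molybdate transporter (Cha03g006640) had 167 ± 48.0 and 161 ± 10.2 CPM. For siroheme, the cofactor of nitrite reductase, none of 3 tested models was called by edgeR or DESeq2 or had an unadjusted p under 0.05. Siroheme synthase (Cha02g005770) had 31.9 ± 9.31 and 39.3 ± 1.49 CPM (log2 change 0.30, adjusted p = 0.243). Without high-temperature replicate 1 it was called higher in the cold (log2 change 0.56, edgeR adjusted p = 0.0225).

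Electron supply and ammonium assimilation also went both ways. Among ferredoxins, ferredoxin-NADP reductases and glucose-6-phosphate dehydrogenases, which supply electrons to nitrite reductase, 5 of 18 tested models rose, 3 fell and 10 did not pass. Without any 1 low-temperature library 3 rose, and without low-temperature replicate 2 only 1 fell. Without high-temperature replicate 3 or low-temperature replicate 1 or 3, 2 fell in each case. The most abundant ferredoxin-1 (Cha13g013220) had 1229 ± 298 and 1409 ± 240 CPM (edgeR, adjusted p = 0.538). A ferredoxin named after a heterocyst protein (Cha09g015360) rose from 58.4 ± 15.3 to 108 ± 18.5 CPM, and ferredoxin-3 (Cha08g007550) fell from 72.7 ± 10.3 to 49.2 ± 2.43 CPM. None of 5 tested glutamine synthetases, the enzymes that fix ammonium, was called by edgeR or DESeq2 or had an unadjusted p under 0.05. The most abundant, a cytosolic isozyme (Cha01g012080), had 382 ± 10.1 and 329 ± 16.1 CPM (adjusted p = 0.30), and the chloroplast isozyme (Cha05g000300, named after its values were seen) had 236 ± 16.1 and 254 ± 13.7 CPM. Ferredoxin-dependent glutamate synthase (Cha10g002090), which completes the cycle, had 54.8, 77.4 and 68.8 CPM at high and 101, 125 and 113 CPM at low temperature. It rose, with groups that do not overlap and a log2 change of 0.75 ± 0.15 (SE, edgeR adjusted p = 0.00168). Of 10 tested synthetases and synthases no other was called, but without high-temperature replicate 2 the number that rose was 4, with the replicate block or no count filter 3, and with DESeq2 2. The pattern also caught 2 folylpolyglutamate synthases by spelling, which belong to another pathway and of which 1 rose and 1 (Cha10g001650) fell in the fit to all libraries.

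Of 8 tested asparagine synthetases and glutamate dehydrogenases 1 rose and 3 fell. Without high-temperature replicate 3, low-temperature replicate 1 or low-temperature replicate 2, 2 fell. An asparagine synthetase (Cha04g014640) fell from 6.22 ± 1.22 to 1.95 ± 0.331 CPM (log2 change -1.67 ± 0.30 SE, edgeR adjusted p = 0.000942). The most abundant one (Cha01g013400) had 129 ± 6.23 and 137 ± 21.3 CPM (adjusted p = 0.723). The other 2 that fell were glutamate dehydrogenases 1 (Cha10g000280, 19.8 to 11.3 CPM) and 2 (Cha14g005860, 46.4 to 32.6 CPM), named after their values were seen, and the call of the second was lost without those same libraries (adjusted p of up to 0.0554). A glutamate dehydrogenase A (Cha08g003750) rose from 20.3 ± 2.23 to 29.3 ± 5.76 CPM, a call lost without any 1 library except low-temperature replicate 3 (adjusted p of up to 0.229).

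**Figure D3:**
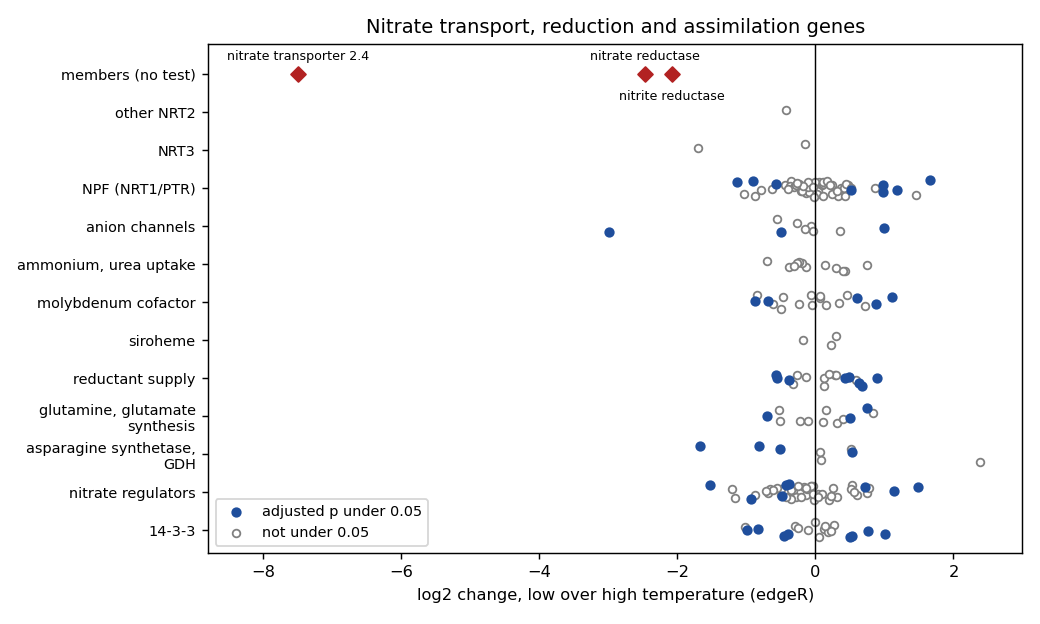
Log2 change, low over high temperature, of every tested model in each list (filled where the edgeR adjusted p was under 0.05), with the 3 members as red diamonds shown without a test. The lists spread around 0, with 24 models that rose and 23 that fell, while the members lie at -7.50 (a fitted value that depends on the prior count, since the transporter was at the floor in the cold), -2.47 and -2.08. The 24 and the 23 each include 1 folylpolyglutamate synthase, caught by spelling.

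Among regulators of the nitrate response, 1 model named LBD37 and 1 named LBD38 rose. These factors of the LOB domain family repress nitrate-induced genes, nitrate reductase among them, in Arabidopsis. LBD37 (Cha13g011490) had 6.51, 2.51 and 3.74 CPM at high and 16.4, 9.06 and 10 CPM at low temperature. The groups do not overlap, and the log2 change was 1.48 ± 0.32 (SE, edgeR adjusted p = 0.00474). LBD38 (ChaUn10114.2, named after its values were seen) had 15.9, 8.50 and 15.4 CPM against 31.3, 36.3 and 19.5 CPM, also without overlap. Its log2 change was 1.13 ± 0.26 (SE, edgeR adjusted p = 0.00856). In high-temperature replicate 2 both were lowest. Of 6 tested models of the LBD37, LBD38 and LBD39 names these 2 rose, a share of 33.3% against 9.27% of all tested models. The other 4 did not pass, among them the most abundant LBD37 (Cha03g017500), with 38.8 ± 11 and 65.0 ± 19.4 CPM (edgeR adjusted p = 0.0679). It was called higher with DESeq2 (0.0114), with library totals (0.0221), with the replicate block (0.0497) and without low-temperature replicate 3 (0.00719), and its adjusted p over all alternatives ran up to 0.196.

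Over the whole regulator list 3 of 48 tested models rose and 5 fell, shares of 6.25% and 10.4% that are near those of all models. The number that fell was 0 without low-temperature replicate 2 or 3, 2 without high-temperature replicate 3, 3 without high-temperature replicate 2 or low-temperature replicate 1, 1 with the replicate block and 3 with DESeq2. Of the CIPK8 and CIPK23 names 2 of 5 tested models fell, and of the BTB/POZ and TAZ names 1 of 3. Of the TGA1 and TGA4 names 0 of 1 fell, and no model of these names rose. The NLP factors, which switch on nitrate-induced genes, had no riser and 2 that fell among 27 tested (7.41%, against 9.65% of all tested models). One, named NLP6 (Cha14g013060, named after its values were seen), had 27.6, 44.2 and 35.8 CPM against 26.1, 26.2 and 24.9 CPM, a narrow gap (edgeR adjusted p = 0.0486). This call was lost without any 1 library except high-temperature replicate 1, with DESeq2 and with the replicate block (adjusted p of up to 0.20), and no NLP model was called without high-temperature replicate 2 or any 1 low-temperature library. A CBL-interacting kinase named CIPK23 (Cha07g002800), after a kinase that acts on nitrate transport in Arabidopsis, fell from 9.32 ± 2.52 to 4.88 ± 0.28 CPM (adjusted p = 0.0123), a call lost without low-temperature replicate 2 or 3. The 14-3-3 proteins, which bind and inactivate phosphorylated nitrate reductase, had 4 that rose and 4 that fell among 19 tested. That is 42.1% called, against 18.9% of all tested models. Only 1 fell without high-temperature replicate 1, low-temperature replicate 2 or low-temperature replicate 3, and 2 fell without high-temperature replicate 3 or low-temperature replicate 1. Without high-temperature replicate 3 or any 1 low-temperature library, 2 rose. A 14-3-3-like protein (ChaUn8325.2) rose from 121 ± 20.8 to 245 ± 5.39 CPM, and 14-3-3 protein 7 (Cha09g005300) fell from 59.4 ± 2.90 to 29.8 ± 5.08 CPM. The most abundant per length (Cha08g014600) had 660 ± 114 and 750 ± 62.1 CPM (adjusted p = 0.482).

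Of the 3 models on each side of each member, 18 in all, 9 were tested, and 1 rose and 1 fell. The share called, 22.2%, is near the 18.9% of all tested models. Both called models lie next to the transporter, 1 on each side. SNF1-related protein kinase regulatory subunit beta-3 (Cha11g004530), 26103 bases beyond the transporter, had 16.1, 20 and 16.3 CPM at high and 9.72, 8.17 and 9.25 CPM at low temperature. It fell, with groups that do not overlap and a log2 change of -0.95 ± 0.18 (SE, edgeR adjusted p = 0.00152). Kinases of the SNF1-related class are known to phosphorylate nitrate reductase. This regulatory subunit was taken by position only, and any link to the members was not tested. On the other side, 215916 bases away, ABC transporter F family member 1 (Cha11g004480) rose from 49.2 ± 1.18 to 116 ± 10.4 CPM (adjusted p = 5.77e-06). Around nitrate reductase and nitrite reductase no tested neighbour was called. The nearest to nitrite reductase, a fucosyltransferase 16735 bases away (Cha02g016120), had 19.2 ± 3.39 and 18.6 ± 0.332 CPM (adjusted p = 0.875).

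Gene models with the most similar profile were sought over the 6 libraries, among 14378 with a protein name and at least 5 CPM in the higher group. Likeness was the root mean square distance between log2 CPM profiles, each centred on its own mean. The transporter's nearest was glutathione S-transferase F12 (Cha03g014090), which in Arabidopsis helps carry anthocyanins to the vacuole, at a distance of 0.577. Next came models named beta-amyrin 28-oxidase (Cha14g004610, 0.937) and S-norcoclaurine synthase 1 (Cha14g005370, 1.22). The transporter had only 3, 0 and 3 counts at low temperature, where glutathione S-transferase F12 had 112, 104 and 98. Its distances and their order therefore depend on the prior count of 2. Nitrate reductase had closer neighbours, a dioxygenase of the methionine salvage cycle (ChaUn18173.1) at 0.0834, an anthocyanin malonyltransferase (Cha13g012390) at 0.142 and a class III peroxidase (ChaUn7629.2) at 0.233. Nitrite reductase was nearest to a WVD2-like protein (Cha06g017010) at 0.225, to a model named deacetylvindoline O-acetyltransferase (ChaUn12724.1) at 0.238 and to another beta-amyrin 28-oxidase (Cha14g002770) at 0.243. Both reductases lay 0.40 from each other, so each had closer models than its partner enzyme. Distances over 6 libraries in 2 groups mostly reflect the size of the step between the groups.

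**Figure D4:**
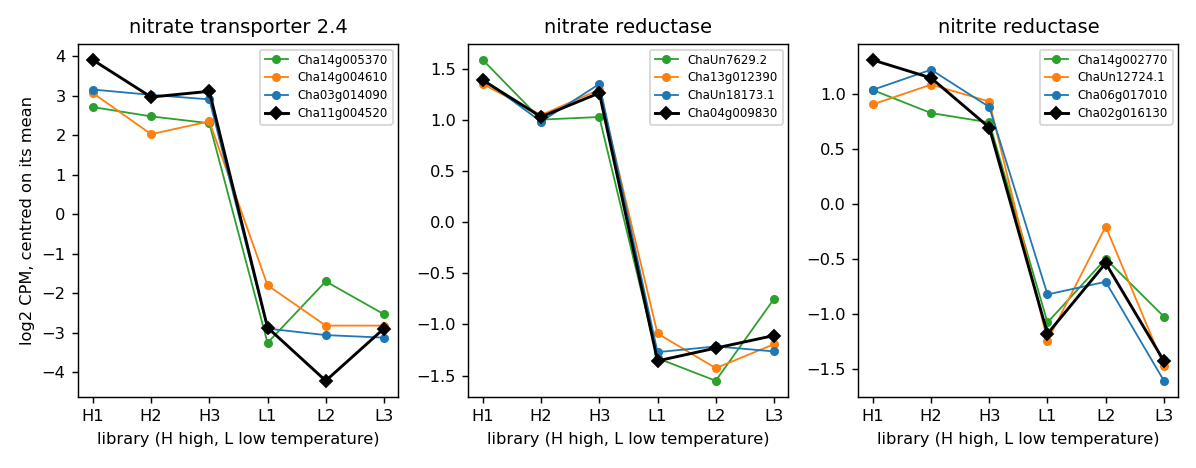
Log2 CPM, centred on each model's mean over the 6 libraries, for each member (black diamonds) and the 3 models with the smallest distance to it, in high-temperature (H) and low-temperature (L) libraries 1 to 3. The step between groups dominates every profile, and nitrite reductase and its neighbours have their highest low-temperature value in replicate 2. The neighbours were picked by likeness over these same libraries, so such shared features follow from the choice.

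Library depth was even, from 15202546 to 15642015 counts. High-temperature replicate 2 stood apart from its group, its counts differing from its partners' by a per-gene chi-square averaging 26.5 and 23, where these partners differed by 5.32. Without that library the log2 changes of the members were -7.68, -2.57 and -2.04, against -7.50, -2.47 and -2.08 with it. Low-temperature replicate 1 also differed more from replicates 2 and 3 (11.5 and 10.2) than these did from each other (5.66), and without it the members' log2 changes were -7.90, -2.41 and -1.99. Defining markers of green leaf, the chlorophyll a-b binding proteins and the Rubisco small chain, had counts in all 25 models, and their summed level was 36043 to 49150 CPM at high and 30156 to 31132 CPM at low temperature. Of 23 tested mesophyll markers 14 fell and 1 rose, shares of 60.9% and 4.35%, against 9.65% and 9.27% of all tested models. The number that fell was 6 to 10 without any 1 library other than high-temperature replicate 2, and 18 without that one. Phloem markers summed to 214 to 219 CPM at high and 237 to 269 CPM at low temperature, with 1 of 15 tested that rose and 1 that fell (0 to 2 each without 1 library), and 1 of 21, a sieve element occlusion model, at 0 in every library. Models with root-related names, several of which leaves also express, summed to 359 to 381 and 473 to 510 CPM, with 3 of 11 tested that rose and 1 that fell (2 to 4 and 0 to 1 without 1 library). Of those 20, 4 were at 0 in every library (2 named SCARECROW, 1 SHORT-ROOT and 1 ROOT HAIR DEFECTIVE 3). Xylem (202 to 275 against 223 to 286 CPM, none of 17 called by edgeR, 3 with an unadjusted p under 0.05), dividing-cell (947 to 964 against 902 to 959 CPM, 1 of 21 rose and 2 fell, or 1 to 2 and 1 to 4 without 1 library) and epidermis markers (2187 to 2658 against 2414 to 2765 CPM, 2 of 17 rose and 2 fell) overlapped between the groups. In the first of these lists 1 fasciclin-like model and in the second 1 cyclin-A2-1 model were at 0 in every library, and in the third none was. The share called in either direction was 65.2% for mesophyll, 36.4% for root-named, 23.5% for epidermis and 14.3% for dividing-cell markers. It was 13.3% for phloem and 0% for xylem markers, against 18.9% of all tested models. The part of the mesophyll, phloem and root-named markers in the low levels of the trio was not tested.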

How the data were processed

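The authors deposited raw counts per gene model and FPKM for the same models. RNA came from a plant RNA column kit and a standard Illumina library kit, per the labels' protocols. The submitters' processing notes name R 4.1.0, DESeq2 1.20.0, featureCounts 1.5.0-p3, HISAT2 2.0.5, fastp and CASAVA 1.8.2, without roles. Neither genome build nor strandedness is given in the sources used here, and sense and antisense reads may be mixed. The deposited FPKM equal count over gene length over 1 divisor per library, 0.977 to 1.13 times its total. All 33556 models of the gene caller have a length divisible by 3, which is thus a coding length, and 6562 loci lie outside them. Bisulfite data were not analysed here.

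The test on counts was the robust quasi-likelihood F test of edgeR 4.0.16 (R 4.3.3) over all 6 libraries with temperature as sole term, TMM scaling and filterByExpr at 10 counts minimum, with Benjamini-Hochberg adjustment over all 26767 tested models and calls under 0.05. CPM are counts over TMM-scaled totals; log2 CPM have a prior count of 2. Each standard error was derived from a log2 change and the F value beside it. The edgeR step was also run on simulated counts, the outcome of which is not used as support here. Alternatives were other scalings and filters, DESeq2 1.42.0, limma 3.58.1 on log2 FPKM, leaving out each library, a block for replicate number and an adjusted p under 0.01. Leaving out folylpolyglutamate synthases was added after seeing the data.

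Members and lists were chosen with earlier results of these data known. Named were models with the members' names, in each list the called riser and faller with the smallest p and the highest mean FPKM, the 3 neighbours on each side, and the 3 nearest profiles. Between replicates the chi-square averaged at least 5.32 per gene (sampling noise gives about 1), and all 6 libraries were kept as separate samples.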

Additional observations from a re-analysis of the deposited data

How the results depend on the processing

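The direction of the 3 members held under every alternative run. They were chosen by that direction in these same libraries, so this outcome was largely fixed in advance and adds no support. The transporter's fitted log2 change, -7.50, depends on the small number added to low values, and was -4.60 on log2(FPKM + 1), filtered or not. Leaving out 1 library gave -7.90 to -6.93 for the transporter, -2.57 to -2.39 for nitrate reductase and -2.38 to -1.90 for nitrite reductase. Over all models 2480 rose and 2582 fell. With unfiltered log2(FPKM + 1) these were 1385 and 1482, with the pathway lists at 10 and 12. At an adjusted p under 0.01 they were 1178 and 1245, with the lists at 11 and 7. Leaving out 1 library gave 1267 to 2892 that rose and 1337 to 2729 that fell, and in the pathway lists 12 to 28 and 7 to 23. The NRT2 and NRT3 models gave 0 calls and the neighbours 2 calls without any 1 library. With no count filter the neighbours gave 3 calls among 17.

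Same-numbered libraries did not deviate together (correlations of -0.0113, 0.0399 and -0.00939), so no replicate effect common to both groups was seen. The correlations cannot show whether same-numbered libraries were collected or handled together. With the replicate number as a block the members' log2 changes were -7.50, -2.47 and -2.10. Of 53 other models followed one by one, 2 lost and 3 gained a call under that block.

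Of these 53, 5 lost their call on filtered log2(FPKM + 1), 10 on unfiltered, and 3 to 10 without 1 library. Sign changes occurred only in uncalled models. Cha03g006640 had 0.0048 on log2(FPKM + 1) and 0.0052 on log2(FPKM + 0.1), and without 1 library -0.27 to 0.098. Cha11g004500 had -0.0073 with library totals, and without 1 library -0.0705 to 0.22. Without 1 library Cha01g013400 had -0.0227 to 0.20, Cha02g016120 -0.12 to 0.11 and Cha04g009860 -0.0213 to 0.34. The cause was not tested. A count of 3 is 0.18 to 0.204 CPM, which limits what can be said of the transporter in the cold.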

Other observations

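Of 6 models that share a molybdenum-cofactor or a nitrite and sulfite reductase domain with the reductases, 4 were tested, and all 4 are named as enzymes of sulfite. All 4 were called, 1 that rose and 3 that fell, where 18.9% of all tested models were called. Sulfite reductase, which has the same 4Fe-4S and ferredoxin-like domains as nitrite reductase, is named in 2 models. The main one (Cha11g002450) rose from 97.1 ± 7.30 to 137 ± 10.9 CPM (SD, n = 3; log2 change 0.49 ± 0.13 SE, edgeR adjusted p = 0.0135). The other (Cha13g010370) fell from 33.7 ± 4.56 to 23.7 ± 3.08 CPM (adjusted p = 0.0285). Both calls were lost without certain single libraries, with an adjusted p of up to 0.0797 and 0.16. Sulfite oxidase, which like nitrate reductase binds the molybdenum cofactor, had 2 tested models that fell, by 0.51 and 0.71 on the log2 scale (ChaUn3523.15, adjusted p = 0.0225, up to 0.123 over its alternatives; Cha03g021530, adjusted p = 0.00598, up to 0.0546). These models were chosen by domain after the members' values were known. Whether their changes differ from those of the reductases was not tested.

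A glutamate dehydrogenase A (ChaUn7471.4) had 3.31 ± 0.783 CPM at high and 17.4 ± 11.6 CPM at low temperature. The low-temperature libraries spread widely, and it did not pass the test (edgeR, adjusted p = 0.0723), though 6 of 17 alternatives called it (adjusted p of up to 0.231 over all).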
